A study of Mus with 6 samples.

Results

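The CXC chemokines are small secreted proteins that steer the movement of white blood cells, named for a conserved pair of cysteines with a single residue between them. Messenger RNA of these chemokines was measured in mouse pancreatic tumors. Of 10 listed CXC chemokine genes, Cxcl1, Cxcl2, Cxcl5, Cxcl9, Cxcl10, Cxcl12, Cxcl13, Cxcl14 and Cxcl16 were found by Ensembl ID among the 15646 genes counted, and Cxcl11 was not analysed here. Of these 9 genes, 7 had enough reads to enter the statistical test, together with 14341 other genes, and the scarce Cxcl9 and Cxcl13 did not.

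Ligands that carry the residues ELR before the cysteines (Cxcl1, Cxcl2 and Cxcl5) bind the receptor Cxcr2, attract neutrophils and are induced by inflammatory signals through NF-kB. Cxcl9, Cxcl10 and Cxcl11 are induced by interferons and attract activated T cells and NK cells through Cxcr3. Cxcl12 and Cxcl14 are made constitutively in many tissues, Cxcl13 organizes B cell follicles, and Cxcl16 is unusual in being anchored in the cell membrane. In pancreatic cancer, Cxcr2 ligands are known for drawing neutrophils into the tumor, and Cxcl12 is known as a product of cancer-associated fibroblasts.

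Tumors were grown from 1 line of mouse pancreatic ductal adenocarcinoma cells, KPC1199, placed in the pancreas of obese ob/ob mice (3 libraries, numbered 1, 3 and 4), which have no functional leptin, or of lean wild-type mice (3 libraries, numbered 1, 2 and 3). The labels give no age, sex, strain background or time after implantation, and do not say whether each library came from a separate mouse. The p-values therefore set the host difference against the spread between libraries, which may in part be technical. Each library was made from whole tumor tissue, so fewer cells of a type and less RNA per cell cannot be told apart. Neither the tissue nor the ob allele could be checked on marker genes, because the sources used here pair no other Ensembl ID with a gene symbol.

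The libraries held 7122533 to 8521244 counts. Levels are given as CPM, counts relative to the library size after scaling with edgeR's TMM factor, and 1 count was worth 0.117 to 0.142 CPM. On the first principal component of all genes tested the obese libraries lay between 29.0 and 43.6 and the lean libraries between -46.0 and -25.6. On the second, obese 3 stood apart from the other libraries of both hosts, at -37.7 against -6.45 to 17.5. Values without obese 3 are therefore given beside the results that rest on it.

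None of the 7 CXC chemokines tested differed between the hosts by the threshold used, a Benjamini-Hochberg adjusted p under 0.05 in edgeR's quasi-likelihood test, with the adjustment made over the whole table, where 20.8% of all genes tested did. Counted by direction, 0 were called higher in obese hosts, against a background of 10.3%, and 0 lower, against 10.6%. At an unadjusted p under 0.05, 1 of the 7 was counted, Cxcl5, against 36.2% of all genes. DESeq2 called 1 of the 7, Cxcl5, and had 2 at an unadjusted p under 0.05, Cxcl5 and Cxcl10, where it called 21.6% of the genes for which it gave an adjusted p. With limma-voom 0 were called, where it called 3006 of the 14348 genes tested, and 1, Cxcl5, had an unadjusted p under 0.05. The share of all genes at an unadjusted p under 0.05 was not counted for DESeq2 or limma-voom, so those counts have no background to be read against. For 0 of the 7 were all obese libraries above all lean libraries in level, a pattern of 20.3% of all genes tested, and for 0 were all below, a pattern of 20.0%.

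Fitted differences pointed both ways. Of the 7 genes, 3 had a positive and 4 a negative log2 fold change, and their median was -0.04, where the median of all genes tested was 0.01. The median absolute log2 fold change was 0.42 for the 7 chemokines and 0.32 for all genes tested. Their errors were mostly larger: the median standard error (SE) of the log2 fold change was 0.46 for the 7 chemokines and 0.19 for all genes. The SE was above the median of all genes for 6 of the 7, and just below it for Cxcl16. This comparison was not matched for abundance.

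**Figure D1:**
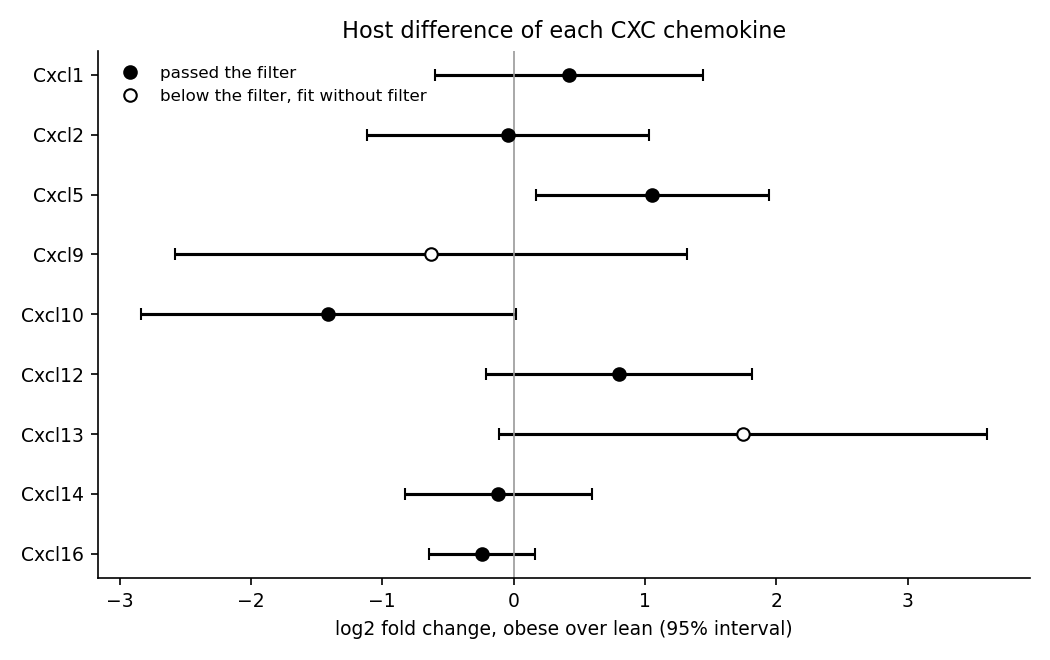
Log2 fold change (obese over lean) of each CXC chemokine with its 95% interval from edgeR; open circles mark the scarce genes, fitted without the filter on low counts. Only the interval of Cxcl5 (0.17 to 1.95) lies wholly on one side of 0, and that of Cxcl10 (-2.84 to 0.02) reaches just past it.

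The Cxcr2 ligands lie close together on chromosome 5, within 146.6 kb between the outer ends of Cxcl5 and Cxcl2 (RefSeq annotation of the mouse assembly GRCm38.p6, the build named in the submitters' processing notes). Cxcl5, a neutrophil attractant also called LIX (ENSMUSG00000029371.7, protein-coding, chr5:90759298-90761625), had 75, 145 and 77 counts in obese 1, 3 and 4, against 45, 19 and 72 counts in lean 1, 2 and 3. In CPM these were 8.79, 17.7 and 9.29 in obese hosts and 5.34, 2.70 and 9.01 in lean hosts. Lean 3 lay within the range of the obese libraries, so the groups overlapped, while lean 1 and lean 2 were below every obese library. The means were 11.9 ± 5.03 CPM in obese and 5.68 ± 3.17 CPM in lean hosts (SD, n = 3 each). The log2 fold change was 1.06 with an SE of 0.40 (95% interval 0.17 to 1.95; edgeR adjusted p = 0.0846).

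The Cxcl5 call turned on single choices. DESeq2 passed it (log2 fold change 1.06, adjusted p = 0.0407), and so did edgeR without lean 3, with a log2 fold change of 1.55 (adjusted p = 0.0465). Without obese 3, its highest library, the log2 fold change was 0.67 (edgeR adjusted p = 0.253), and without lean 2, its lowest, it was 0.73 (edgeR adjusted p = 0.232).

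Cxcl1, also called KC and a close relative of Cxcl2 (ENSMUSG00000029380.11, protein-coding, chr5:90891245-90893121), had 34, 28 and 27 counts in obese 1, 3 and 4, or 3.99, 3.43 and 3.26 CPM. The lean libraries 1, 2 and 3 had 8, 26 and 27 counts, or 0.950, 3.69 and 3.38 CPM. A single library, lean 1, was low, and the other 5 lay within a narrow band. The log2 fold change was 0.42 with an SE of 0.46 (95% interval -0.60 to 1.44; edgeR adjusted p = 0.545). It was 0.01 without lean 1 (edgeR adjusted p = 0.99), 0.72 without lean 2 (edgeR adjusted p = 0.406) and 0.64 without lean 3 (edgeR adjusted p = 0.469).

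Cxcl2, also called MIP-2 (ENSMUSG00000058427.10, protein-coding, chr5:90903899-90905938), had 30, 13 and 49 counts in obese 1, 3 and 4, or 3.52, 1.59 and 5.91 CPM. In lean 1, 2 and 3 it had 35, 14 and 41 counts, or 4.15, 1.99 and 5.13 CPM. The obese and lean libraries covered nearly the same range, with 1 low library in each host. The means were 3.67 ± 2.17 CPM in obese and 3.76 ± 1.61 CPM in lean hosts (SD, n = 3 each). The log2 fold change was -0.04 with an SE of 0.49 (95% interval -1.11 to 1.03; edgeR adjusted p = 0.962), so that a 2-fold difference in either direction lay inside the interval. Without obese 3 it was 0.32 (edgeR adjusted p = 0.642), and without obese 4 it was -0.56 (edgeR adjusted p = 0.501).

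Cxcl5 and Cxcl2 ranked the lean libraries alike, lean 3 highest and lean 2 lowest. In obese hosts they did not, since obese 3 had the highest Cxcl5 and the lowest Cxcl2. Most libraries differed too little in Cxcl1 to be ranked, with 26 to 34 counts in all but lean 1. Per count of Cxcl5, Cxcl2 had 0.40, 0.0897 and 0.636 counts in obese 1, 3 and 4, against 0.778, 0.737 and 0.569 in lean 1, 2 and 3. The lowest value was that of obese 3, and the ranges overlapped. How reads common to similar stretches of Cxcl1 and Cxcl2 were assigned is not given in the sources used here.

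**Figure D2:**
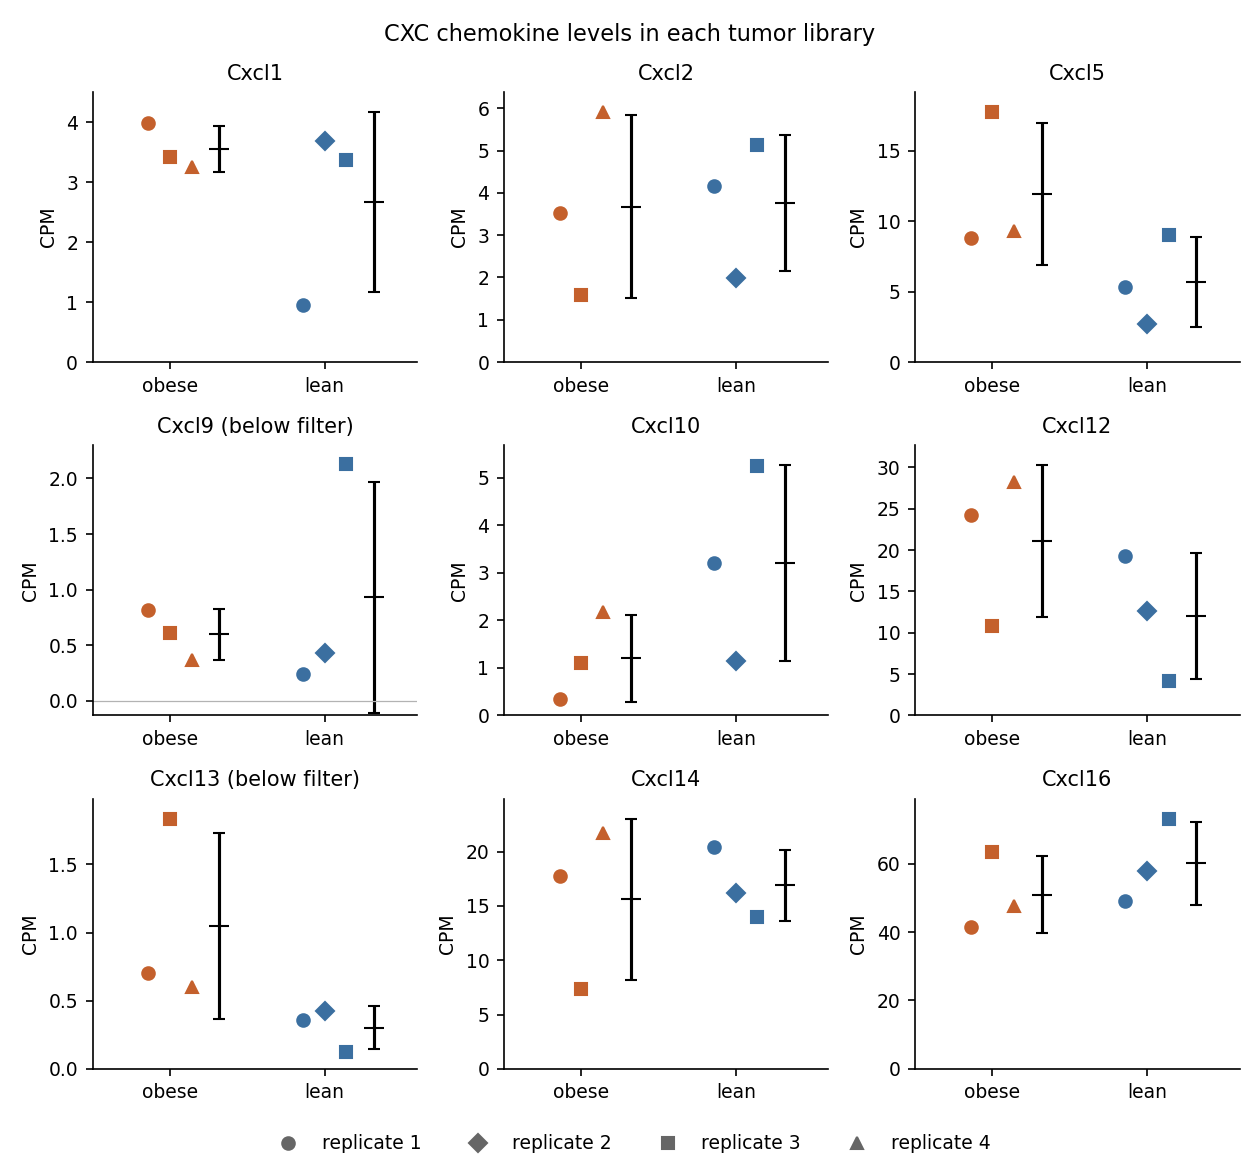
Level of each CXC chemokine (CPM, linear axes that differ between panels) in the obese and lean tumor libraries; marker shapes give the replicate number, and the black bar is the mean with its SD (n = 3). The hosts overlap in every panel but that of Cxcl13, where the obese libraries lie at 0.603 to 1.84 CPM and the lean libraries at 0.125 to 0.426 CPM.

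The interferon-induced ligands were scarce. Cxcl10, or IP-10 (ENSMUSG00000034855.13, protein-coding, chr5:92346638-92348889), had 3, 9 and 18 counts in obese 1, 3 and 4, against 27, 8 and 42 counts in lean 1, 2 and 3. In CPM these were 0.352, 1.10 and 2.17 in obese hosts and 3.21, 1.14 and 5.26 in lean hosts. Lean 1 and lean 3 were above every obese library, while lean 2 was level with obese 3. The means were 1.21 ± 0.915 CPM in obese and 3.20 ± 2.06 CPM in lean hosts (SD, n = 3 each).

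The log2 fold change of Cxcl10, -1.41 with an SE of 0.65, was the largest in size among the 7 chemokines tested and missed the threshold (95% interval -2.84 to 0.02; edgeR adjusted p = 0.143). It was -0.97 without obese 1 (edgeR adjusted p = 0.35), -2.14 without obese 4 (edgeR adjusted p = 0.0857) and -0.86 without lean 3 (edgeR adjusted p = 0.465). The RefSeq span of Cxcl10 overlaps that of Art3, and as the strand setting of the counting is not given in the sources used here, reads from the shared stretch cannot be told apart.

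Cxcl9, or MIG (ENSMUSG00000029417.9, protein-coding, chr5:92321331-92328079), had 7, 5 and 3 counts in obese 1, 3 and 4, against 2, 3 and 17 counts in lean 1, 2 and 3. Lean 3 alone held most of the lean counts, and the groups overlapped. The means were 0.598 ± 0.230 CPM in obese and 0.930 ± 1.04 CPM in lean hosts (SD, n = 3 each). Without the filter on low counts, where 18.6% of all genes were called, the log2 fold change was -0.63 with an SE of 0.88 (edgeR adjusted p = 0.65). Without lean 3 it was 0.84 (edgeR adjusted p = 0.619), so its direction rested on that library. Lean 3 had the highest Cxcl9 and the highest Cxcl10 of all 6 libraries, and it also had the highest Cxcl16. The genes Cxcl9, Cxcl10 and Cxcl11 lie within 41.97 kb of chromosome 5, and RefSeq annotates Cxcl11 as a transcribed pseudogene in this assembly.

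Cxcl12, or SDF-1, the ligand of Cxcr4, holds stem cells and lymphocytes in their niches and is typically made by fibroblasts and other stromal cells. It (ENSMUSG00000061353.11, protein-coding, chr6:117168535-117181368) had 207, 88 and 234 counts in obese 1, 3 and 4, against 163, 89 and 33 counts in lean 1, 2 and 3. In CPM these were 24.3, 10.8 and 28.2 in obese hosts and 19.3, 12.6 and 4.13 in lean hosts. Obese 1 and obese 4 were above every lean library, and obese 3 was below lean 1 and lean 2. The log2 fold change was 0.81 with an SE of 0.46 (95% interval -0.21 to 1.82; edgeR adjusted p = 0.23). It was 1.13 without obese 3 (edgeR adjusted p = 0.0711), 1.34 without lean 1 (edgeR adjusted p = 0.0836), 0.54 without obese 4 (edgeR adjusted p = 0.501) and 0.39 without lean 3 (edgeR adjusted p = 0.511).

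Cxcl13, or BLC, the ligand of Cxcr5 that organizes B cell follicles, was near the limit of detection. It (ENSMUSG00000023078.6, protein-coding, chr5:95956939-95961068) had 6, 15 and 5 counts in obese 1, 3 and 4, against 3, 3 and 1 counts in lean 1, 2 and 3. Every obese library was above every lean one, the only non-overlap among the 9 genes (exact permutation test of log2 CPM, two-sided, p = 0.1, the smallest that 3 against 3 libraries allow). Of all 15646 genes, 19.5% showed this pattern in the same direction. The means were 1.05 ± 0.684 CPM in obese and 0.302 ± 0.157 CPM in lean hosts (SD, n = 3 each). Without the filter, the log2 fold change was 1.75 with an SE of 0.84 (95% interval -0.11 to 3.61; edgeR adjusted p = 0.166), and without obese 3, its highest library, it was 1.09 (edgeR adjusted p = 0.463).

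Cxcl14, or BRAK, is made by many normal epithelia and fibroblasts, and its receptor is not settled. It (ENSMUSG00000021508.11, protein-coding, chr13:56288643-56296811) had 151, 60 and 180 counts in obese 1, 3 and 4, against 172, 114 and 112 counts in lean 1, 2 and 3. In CPM these were 17.7, 7.34 and 21.7 in obese hosts and 20.4, 16.2 and 14.0 in lean hosts. Obese 3 was below all other libraries, and the other 5 overlapped. The log2 fold change was -0.11 with an SE of 0.32 (95% interval -0.83 to 0.60; edgeR adjusted p = 0.831), and it was 0.23 without obese 3 (edgeR adjusted p = 0.476).

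Cxcl16 is a membrane-anchored ligand of Cxcr6 that also acts as a scavenger receptor for oxidized lipoprotein and can be shed from the cell surface. It (ENSMUSG00000018920.11, protein-coding, chr11:70454389-70459984) had the most counts of the 9 genes, 354, 518 and 395 in obese 1, 3 and 4, against 414, 408 and 584 in lean 1, 2 and 3. In CPM these were 41.5, 63.4 and 47.7 in obese hosts and 49.1, 57.9 and 73.1 in lean hosts. Obese 1 and obese 4 were below every lean library, and obese 3 was above lean 1 and lean 2.

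The Cxcl16 estimate was the most precise, with a log2 fold change of -0.24 and an SE of 0.18 (95% interval -0.64 to 0.16; edgeR adjusted p = 0.37), an interval that leaves out a 2-fold difference in either direction. Without obese 3 it was -0.42 (edgeR adjusted p = 0.0949), and without lean 3 it was -0.08 (edgeR adjusted p = 0.823). Its RefSeq span overlaps that of Zmynd15, with the same limit on strand as for Cxcl10.

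**Figure D3:**
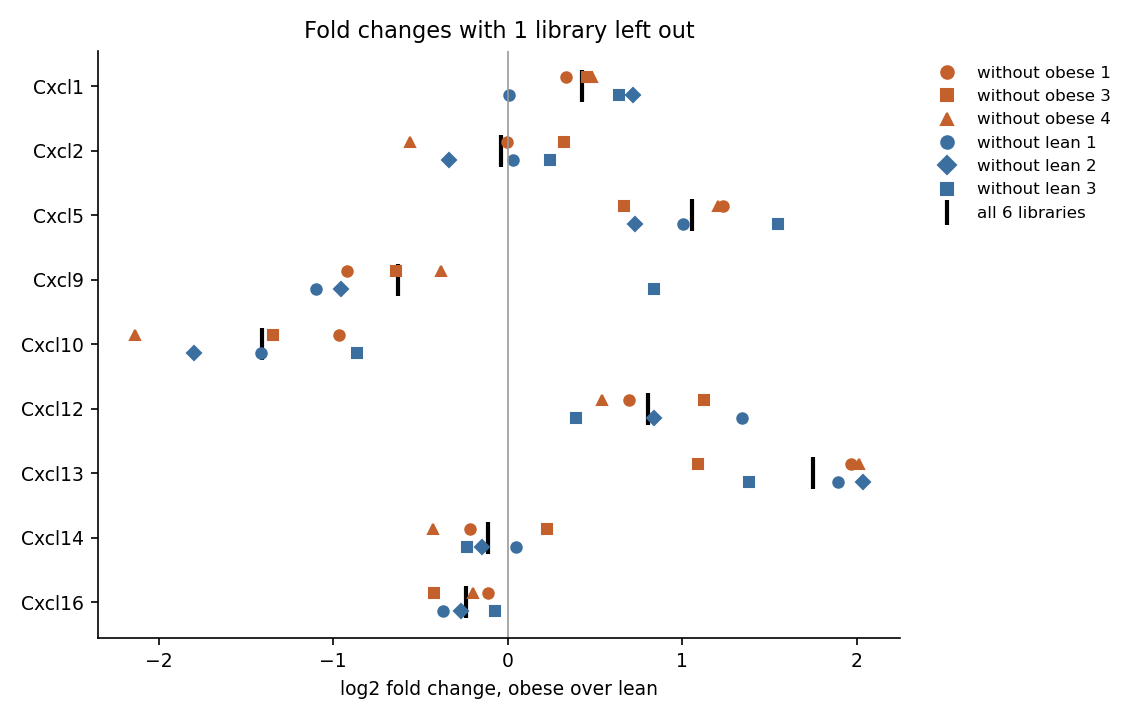
Log2 fold change (obese over lean) of each CXC chemokine with all 6 libraries (black bar) and with each library left out (colored markers; Cxcl9 and Cxcl13 without the filter on low counts). The estimates of Cxcl2, Cxcl9 and Cxcl14 cross 0, while those of Cxcl5 stay between 0.67 and 1.55 and those of Cxcl10 between -2.14 and -0.86.

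The levels of the CXC chemokines varied more between libraries of the same host than those of most genes did. The within-group SD of log2 CPM (pooled over the hosts, with a prior count of 2) had a median of 0.70 over the 7 chemokines tested and of 0.22 over all genes tested. All 7 were above the median of all genes, and all 7 were above the median of the 500 genes nearest to each in mean abundance. Cxcl12 had a within-group SD of 0.95, where the genes near it in abundance had a median of 0.24, which placed it at the percentile 99.4 among them. Cxcl10, at 1.01 against a median of 0.52, was at the percentile 97.2, and Cxcl14, at 0.61 against 0.23, was at the percentile 96.2. Even Cxcl16, the steadiest of the 7 at 0.30 against 0.15, was at the percentile 91.0. Cxcl1 had the lowest place among its neighbors in abundance, the percentile 87.4.

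**Figure D4:**
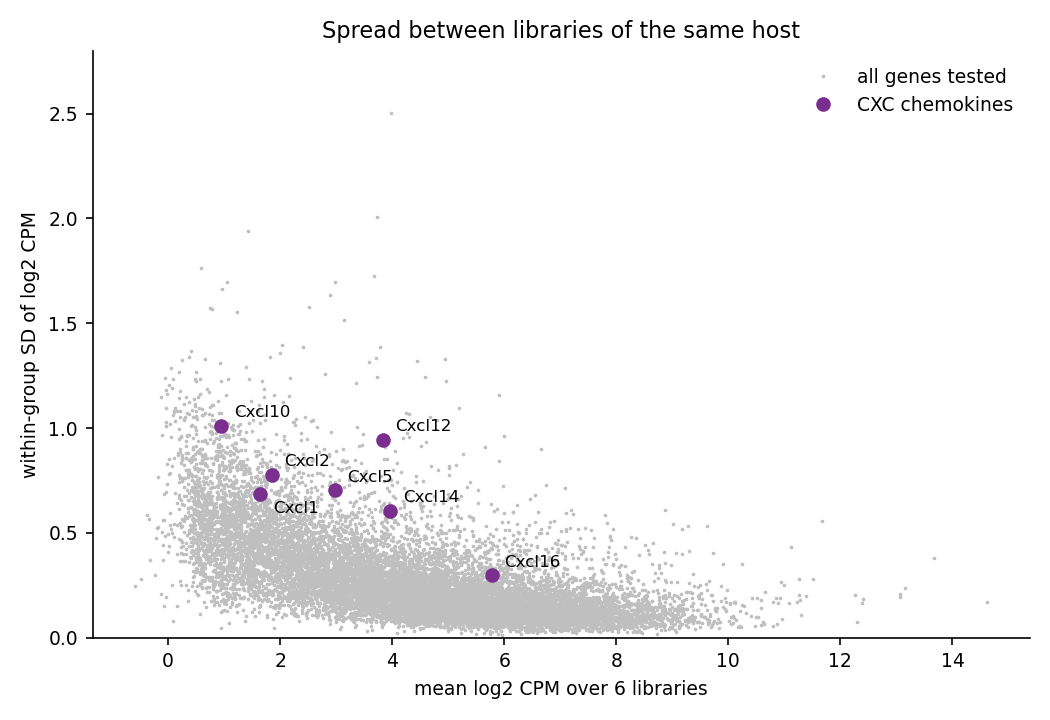
Within-group SD of log2 CPM against mean log2 CPM for all 14348 genes tested (gray) and the 7 CXC chemokines (purple). Each chemokine lies above the bulk of genes of its abundance, with Cxcl12 (SD 0.95) and Cxcl10 (SD 1.01) highest.

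Without obese 3, the median within-group SD was 0.68 over the 7 chemokines and 0.20 over all genes tested, and all 7 stayed above the median of the genes nearest in abundance, an alternative chosen after seeing the data. The place of Cxcl14 rested on that library: without it the SD was 0.25 against a median of 0.21, at the percentile 64.4. Cxcl12 was at the percentile 99.6 without obese 3 (SD 0.92), Cxcl10 at 98.2 (SD 1.17) and Cxcl16 at 88.2 (SD 0.25).

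In the obese hosts alone, the coefficient of variation (CV) of the CPM values was 43.4% for Cxcl12 and 10.7% without obese 3. For Cxcl14 it was 47.6%, and 14.4% without obese 3. For Cxcl10, whose lowest obese library was obese 1, it was 75.7%, and 102% without obese 3. In lean hosts the CV was 63.4% for Cxcl12, 19.3% for Cxcl14 and 64.4% for Cxcl10. Sampling of reads alone would give a CV of 31.6% for Cxcl10 in obese hosts, where it averaged 10 counts, and of 7.53% for Cxcl12. The observed CV was below that of sampling alone for Cxcl1 (10.7% against 18.4%) and Cxcl9 (38.4% against 44.7%) in obese hosts. In lean hosts it was below for Cxcl13 (52.1% against 65.5%). For all other genes in each host it was above, and for Cxcl1 in lean hosts it was 56.1%, with lean 1 low.

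The order of the libraries within a host differed between members. Cxcl12 and Cxcl14 ranked the libraries alike, with obese 4 highest and obese 3 lowest in obese hosts and lean 1 highest and lean 3 lowest in lean hosts. Parts of this order rest on small differences. Obese 1 and obese 4 had 207 and 234 counts of Cxcl12 and 151 and 180 of Cxcl14. Lean 2 and lean 3 had 114 and 112 counts of Cxcl14. Cxcl16 ranked the lean libraries in the opposite order, lean 3 highest and lean 1 lowest, and had obese 3 highest in the obese group. Lean 3 was the highest lean library for 5 of the 9 genes and the lowest for 3. The latter include Cxcl13, with 3, 3 and 1 counts in lean 1, 2 and 3, too few to rank. Obese 3 was the highest obese library for 3 of the 9 genes and the lowest for 3.

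Summed over the 9 genes, CXC chemokine counts came to 101.7, 107.8 and 119.2 CPM in obese 1, 3 and 4, against 103.2, 97.1 and 116.3 CPM in lean 1, 2 and 3, overlapping ranges. Within this sum, which adds reads of transcripts of unequal length, Cxcl16 took 40.8%, 58.8% and 40.0% in obese 1, 3 and 4, against 47.6%, 59.6% and 62.9% in lean 1, 2 and 3. The shares of a library are given with exact (Clopper-Pearson) 95% intervals, which cover counting error only.

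The Cxcr2 ligands Cxcl1, Cxcl2 and Cxcl5 together took 16.0% (13.7 to 18.6) of the CXC counts in obese 1, 21.1% (18.5 to 24.0) in obese 3 and 15.5% (13.3 to 17.9) in obese 4. In the lean libraries they took 10.1% (8.20 to 12.3) in lean 1, 8.63% (6.63 to 11.0) in lean 2 and 15.1% (12.8 to 17.5) in lean 3. The intervals of obese 1 and obese 4 overlapped that of lean 3, and those of lean 1 and lean 2 lay below every obese interval. Of these 3 ligands, Cxcl5 differed most between the hosts in mean share, with 11.0% ± 4.77 in obese and 5.24% ± 2.49 in lean hosts (SD, n = 3 each). Its share was 8.65%, 16.5% and 7.79% in obese 1, 3 and 4, against 5.18%, 2.78% and 7.75% in lean 1, 2 and 3. The obese mean was raised by obese 3, and obese 1 and obese 4 were close to lean 3. Cxcl2 averaged 3.30% ± 1.75 in obese and 3.50% ± 1.27 in lean hosts, and Cxcl1 averaged 3.28% ± 0.601 in obese and 2.54% ± 1.47 in lean hosts, where lean 1 was low at 0.921%. The interferon-induced Cxcl9 and Cxcl10 took 1.15% (0.554 to 2.11), 1.59% (0.871 to 2.65) and 2.13% (1.32 to 3.23) in obese 1, 3 and 4. They took 3.34% (2.25 to 4.76), 1.61% (0.805 to 2.86) and 6.35% (4.87 to 8.12) in lean 1, 2 and 3, and lean 2 was within the range of the obese libraries.

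**Figure D5:**
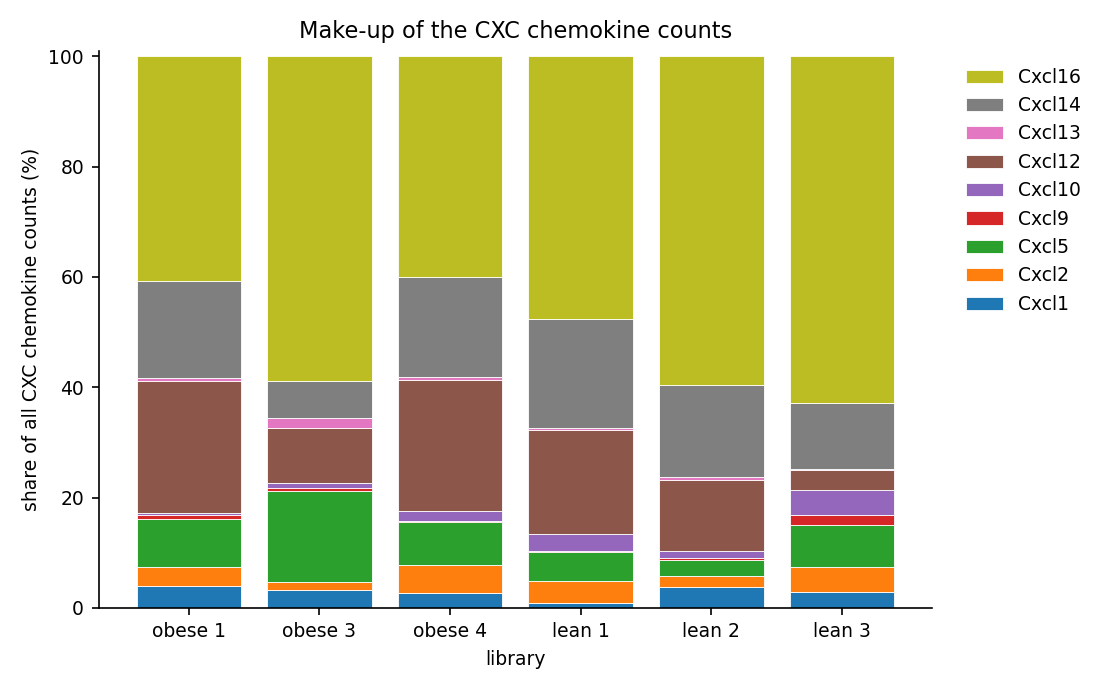
Share of each gene in the summed counts of the 9 CXC chemokines (%), 1 stacked bar per library. Cxcl16 is the largest part in every library (40.0% to 62.9%), and obese 3 differs from the other obese libraries by larger parts of Cxcl16 (58.8%) and Cxcl5 (16.5%) and smaller parts of Cxcl12 (9.99%) and Cxcl14 (6.81%).

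Ratios of counts within a library, as printed here, do not depend on scaling between libraries. All 21 pairs of the 7 chemokines tested were compared. Overlap and tests used differences of log2 CPM with a prior count of 2, which pulls ratios of scarce genes toward 1. For 3 of the 21 pairs (14.3%) the ratios of the hosts did not overlap, where 38.5% of all pairs of genes tested showed no overlap. Cxcl5 had 25.0, 16.1 and 4.28 counts per count of Cxcl10 in obese 1, 3 and 4, against 1.67, 2.38 and 1.71 in lean 1, 2 and 3. Every obese ratio was above every lean one, though that of obese 1 rests on 3 counts of Cxcl10. The other pairs with no overlap were Cxcl5 over Cxcl16, with 0.212, 0.280 and 0.195 in obese 1, 3 and 4 against 0.109, 0.0466 and 0.123 in lean 1, 2 and 3, and Cxcl12 over Cxcl14, with 1.37, 1.47 and 1.30 in obese hosts against 0.948, 0.781 and 0.295 in lean hosts. For each of these 3 pairs the exact permutation test of the log2 ratio gave a two-sided p = 0.1, the smallest possible here, and an adjusted p = 0.467 over the 21 pairs.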

How the data were processed

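RNA was isolated with QIAzol and a purification kit, and ribosomal RNA was removed before library construction, per the labels' protocols. The authors deposited raw counts per gene for 6 libraries. The submitters' processing notes name CASAVA, STAR, Subread and GRCm38, without versions here. The table lists 15646 genes with at least 11 counts in all, so scarce genes had been removed. Titles starting with OB were taken as obese and the others, starting with ND, as lean, from the design text.

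The members were matched by Ensembl ID, and their symbols came with the list. Members and lists were chosen with earlier results of these data known. All 10 members were to be named whatever their values. Receptor, pathway and cell marker lists by symbol were not used, because 0 of 49997 RefSeq rows carry an Ensembl ID.

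Counts were fitted with edgeR 4.0.16 in R 4.3.3 (expression filter with minimum count 10 and minimum total 15, leaving 14348 genes; TMM factors; quasi-likelihood F test, two-sided, no covariates, Benjamini-Hochberg over all genes, threshold 0.05). The SE is the absolute log2 fold change divided by the square root of F. Single values used an exact permutation test. Alternatives were other scaling, other filters, a robust fit, limma 3.58.1 (its voom method), DESeq2 1.42.0, a replicate block and leaving out each library. For Cxcl9 and Cxcl13 all were run without the filter, a choice added after seeing the data.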

Additional observations from a re-analysis of the deposited data

How the results depend on the processing

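Over the 9 genes and their alternatives, 124 of 131 fold changes kept their direction, 7 turned it and 3 had an adjusted p under 0.05. The robust fit gave the same fold changes as the main fit, and the other filters nearly the same, so these alternatives could hardly turn a direction. All reversals but that of Cxcl2 with total counts only came from leaving out 1 library. The count of chemokines called higher in obese hosts was 1 with DESeq2 and 0 to 1 when 1 library was left out (Cxcl5, without lean 3), against 0 with edgeR and all libraries. In either direction, DESeq2 called 3099 of all genes, and edgeR without lean 3 called 1541. The share of all genes called higher was not counted for these fits. Cxcl2, at -0.04, was 0.013 with total counts only, and ranged from -0.56 to 0.32 with 1 library left out, above 0 without obese 3, lean 1 or lean 3. Cxcl14, at -0.11, ranged from -0.43 to 0.23, above 0 without obese 3 or lean 1. Cxcl9 ranged from -1.10 to 0.84, above 0 without lean 3 only. The number of all genes called ranged from 1179 (without lean 2) to 3066 (without obese 3) with 1 library left out, against 2991; the cause was not tested.

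The replicate number is shared by the groups for 1 and 3 only. The correlation of like-numbered libraries after subtracting their group's mean was 0.0901 and 0.0744. For unlike-numbered libraries of the hosts it ran from -0.131 to 0.0663. The like-numbered values were the highest, but all were small and few numbers are shared, so a pairing was not shown. With the replicate block, 1 chemokine was called lower in obese hosts, Cxcl10 (log2 fold change -2.58, edgeR adjusted p = 0.0125). The block called 2087 of all genes, in either direction. Over the alternatives of Cxcl10 the adjusted p ran from 0.0125 to 0.465. The numbers of lean 2 and obese 4 occur in 1 host only, so the block takes these libraries out of every host difference. For Cxcl10 it compares obese 1 and 3 (0.352 and 1.10 CPM) with lean 1 and 3 (3.21 and 5.26 CPM). Of the libraries taken out, obese 4 (2.17 CPM) was above lean 2 (1.14 CPM). Depth limits Cxcl9 and Cxcl13 most, with 1 to 17 counts per library.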
